A study of Mus musculus with 9 samples.

Results

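The genes of MHC class I antigen presentation were examined in the murine Smarcb1-negative peripheral T-cell lymphoma cell line T15. They were taken as a list of 10 genes, H2-K1, H2-D1, B2m, Tap1, Tap2, Tapbp, Nlrc5, Erap1, Psmb8 and Psmb9, and all 10 were found among the 35288 genes counted and passed the filter on low counts that left 13697 genes for testing. RNA-seq was available for 9 libraries of T15 cells, 3 in each of 3 groups that all carry the loss of Smarcb1. The control group was not further described in its labels, which mention a vehicle and a control plasmid without saying which was given. The text of the study calls the control cells untreated, whereas a figure caption on the re-expression system names an empty control vector. The SAHA group received the HDAC inhibitor SAHA (vorinostat) at 1 µM for 72 h. The Smarcb1-RE group carried Smarcb1 on the doxycycline-inducible lentiviral vector pInd20 and had been selected with G418. It was given Dox at 0.5 µg/µl for 72 h. Effects of the re-expressed Smarcb1 and of transduction, selection and Dox therefore cannot be told apart. The methods of the study describe several stable clones, and the labels do not say whether the 3 Smarcb1-RE libraries came from 1 clone or from several. The methods of the study call the 3 libraries of a group biological replicates, without saying how the cultures were separated, and the p-values measure the spread between these libraries.

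MHC class I molecules display peptides from inside the cell to CD8 T cells. Cytosolic proteins are cut by the proteasome, in which the immunosubunits can take the place of the constitutive catalytic subunits. The peptides are carried into the endoplasmic reticulum by the TAP transporter, trimmed by ERAP1 and loaded with the help of tapasin onto a heavy chain paired with beta-2-microglobulin. Nlrc5 is the class I transactivator, which acts at the promoters of these genes through the SXY module together with RFX, CREB/ATF and NF-Y factors, beside elements for NF-kappaB and interferon regulatory factors. T cells express the pathway constitutively, and it is a known target of silencing in tumours.

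The proximal promoters of the classical heavy chains, of B2m and of Tap1 are shown because these are the elements on which Nlrc5, interferon and NF-kappaB signals are known to meet. The sequences are the 250 bases upstream of the RefSeq start (GRCm38.p6), written in the direction of the gene. H2-K1 lies on the minus strand (chr17:34000348-34000597) and is the window that begins at the annotated gene start, of 2 windows listed for the gene. H2-D1 (chr17:35262844-35263093), B2m (chr2:122147437-122147686) and Tap1 (chr17:34187306-34187555) lie on the plus strand. Capitals mark matches, on either strand, to 6 searched motifs, which were GGGATTCCC (kappaB), GAANNGAAA and GAAANNGAA (2 forms of the interferon-stimulated response element), TGACG (CRE half-site), CCAAT (bound by NF-Y) and TTCNNNGAA (GAS element).
H2-K1: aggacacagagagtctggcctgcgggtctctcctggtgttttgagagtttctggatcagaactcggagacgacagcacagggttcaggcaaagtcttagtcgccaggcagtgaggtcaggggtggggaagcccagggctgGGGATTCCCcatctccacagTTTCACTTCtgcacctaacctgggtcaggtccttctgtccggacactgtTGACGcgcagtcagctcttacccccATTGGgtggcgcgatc
H2-D1: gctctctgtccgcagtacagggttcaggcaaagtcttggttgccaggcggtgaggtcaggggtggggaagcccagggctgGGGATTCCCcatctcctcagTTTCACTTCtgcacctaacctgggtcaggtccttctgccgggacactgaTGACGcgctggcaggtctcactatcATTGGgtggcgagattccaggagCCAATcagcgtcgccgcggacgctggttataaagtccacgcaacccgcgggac
B2m: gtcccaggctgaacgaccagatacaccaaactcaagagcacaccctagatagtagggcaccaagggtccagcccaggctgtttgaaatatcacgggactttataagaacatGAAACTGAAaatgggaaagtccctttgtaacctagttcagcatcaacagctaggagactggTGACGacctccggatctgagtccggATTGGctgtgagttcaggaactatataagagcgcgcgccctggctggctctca
Tap1: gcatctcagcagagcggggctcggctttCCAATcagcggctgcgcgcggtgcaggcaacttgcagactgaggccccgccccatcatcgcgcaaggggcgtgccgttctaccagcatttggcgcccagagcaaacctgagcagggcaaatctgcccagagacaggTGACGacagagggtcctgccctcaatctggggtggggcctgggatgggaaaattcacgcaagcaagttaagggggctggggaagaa
In both heavy chain promoters a GAANNGAAA match began 20 bases after the first base of a kappaB match. A TGACG match began another 49 bases further on, counted from first base to first base. Placed on the kappaB match, the windows were identical at 166 of 190 bases (87.4%), and in H2-D1 the same elements lay 60 bases further from the RefSeq start. That start lies 364 bases inside the gene as GENCODE draws it, so the H2-D1 window lies within the GENCODE gene. The same holds for the windows of Tapbp, Psmb8, Psmb9 and Erap1, counted below. Their RefSeq starts lie 3579, 474, 434 and 285 bases inside their GENCODE genes. The B2m window held a GAAANNGAA match 139 bases upstream, a form that was added to the search after this window had been read, and a TGACG match 78 bases upstream. The Tap1 window, which lies within the head-to-head neighbour Psmb9 as GENCODE draws it, held a TGACG match 86 bases upstream and neither form of the interferon element. Of the 8 genes with a promoter entry in RefSeq (all but Tap2 and Nlrc5), 2 held the kappaB letters, 2 GAANNGAAA, 2 GAAANNGAA, 5 TGACG, 6 CCAAT and 1 TTCNNNGAA. The windows of Tap1 and Psmb9 are nearly the same DNA read from opposite strands, so their TGACG and CCAAT matches are the same sites counted for both genes. Among 32851 promoter windows of the same length the shares were 0.301% for the kappaB letters, 6.31% for GAANNGAAA, 7.13% for GAAANNGAA, 17.8% for TGACG, 33.8% for CCAAT and 7.02% for TTCNNNGAA. These matches describe letters in a window and say nothing of binding in T15 cells.

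Library totals lay between 20900477 and 24941494 counts, and each of the 10 genes had at least 2815 counts in every library. Control replicate 1 stood apart from the other control libraries, with a chi-square per gene of 12.5 and 14.1 against them, compared with 2.07 to 4.55 for all other pairs within a group. Without it, the calls of the 10 genes against control were kept except for Psmb8 and Psmb9 in Smarcb1-RE, given below with their values. Values are CPM (counts scaled to the size of each library) after TMM normalization, and n = 3 libraries per group throughout. Smarcb1 itself, the check of the labels, was measured at 0.0850 to 0.329 CPM in control, 0.129 to 0.575 CPM in SAHA and 6.12 to 6.51 CPM in Smarcb1-RE libraries. Summed CPM over 13 T cell markers was 3509 to 3625 in control, 3934 to 3976 in SAHA and 3567 to 3639 in Smarcb1-RE, although Cd4, Cd5, Cd2 and Thy1 were at or near 0. Summed B cell markers stayed at or below 7.97 CPM and myeloid and dendritic cell markers at or below 7.96 CPM in every library, with Csf1r, Lyz2 and Itgax at or near 0. The B cell markers were highest in Smarcb1-RE (7.25 to 7.97 CPM, against 0.936 to 1.14 in control) and the myeloid markers highest in SAHA (6.41 to 7.96 CPM, against 2.20 to 3.002 in control). Among the B cell markers, Pax5 was at means of 0.0982, 0.767 and 3.89 CPM in control, SAHA and Smarcb1-RE. Ms4a1 was at 0.825, 0.768 and 3.51 CPM. Most of the myeloid sum was Cd68, at 1.69, 6.75 and 1.65 CPM. Stromal and epithelial markers summed to 147 to 156 CPM in control, 111 to 125 after SAHA and 129 to 131 in Smarcb1-RE, nearly all of it Pecam1 (150, 112 and 130 CPM), which is an endothelial marker that some T cells also express. Epcam was at 0.980, 2.90 and 0.0714 CPM and Col1a1 at 0.0846, 0.899 and 0.477 CPM. The part of these markers in the results was not tested.

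Nlrc5 showed the largest difference of the 10 genes in Smarcb1-RE against control and against SAHA, while after SAHA H2-D1 differed more (log2 fold change 0.65). The gene, which lies at chr8:94434356-94527272 (GRCm38) on the plus strand, was measured at 120, 122 and 134 CPM in the control libraries, at 175, 193 and 188 CPM in the SAHA libraries and at 362, 364 and 370 CPM in the Smarcb1-RE libraries. The 3 groups did not overlap, with control lowest and Smarcb1-RE highest. Compared with control, Nlrc5 was 1.48-fold higher after SAHA (log2 fold change 0.56, SE 0.05, edgeR adjusted p = 7.7e-07) and 2.92-fold higher upon Smarcb1 re-expression (log2 fold change 1.54, SE 0.05, adjusted p = 5.5e-11). The direct comparison of Smarcb1-RE with SAHA gave a 1.97-fold difference (log2 fold change 0.98, SE 0.05, adjusted p = 2.1e-09). In bulk RNA, a change in the share of cells that express a gene and a change in RNA per cell cannot be told apart, here as for all genes below.

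**Figure D1:**
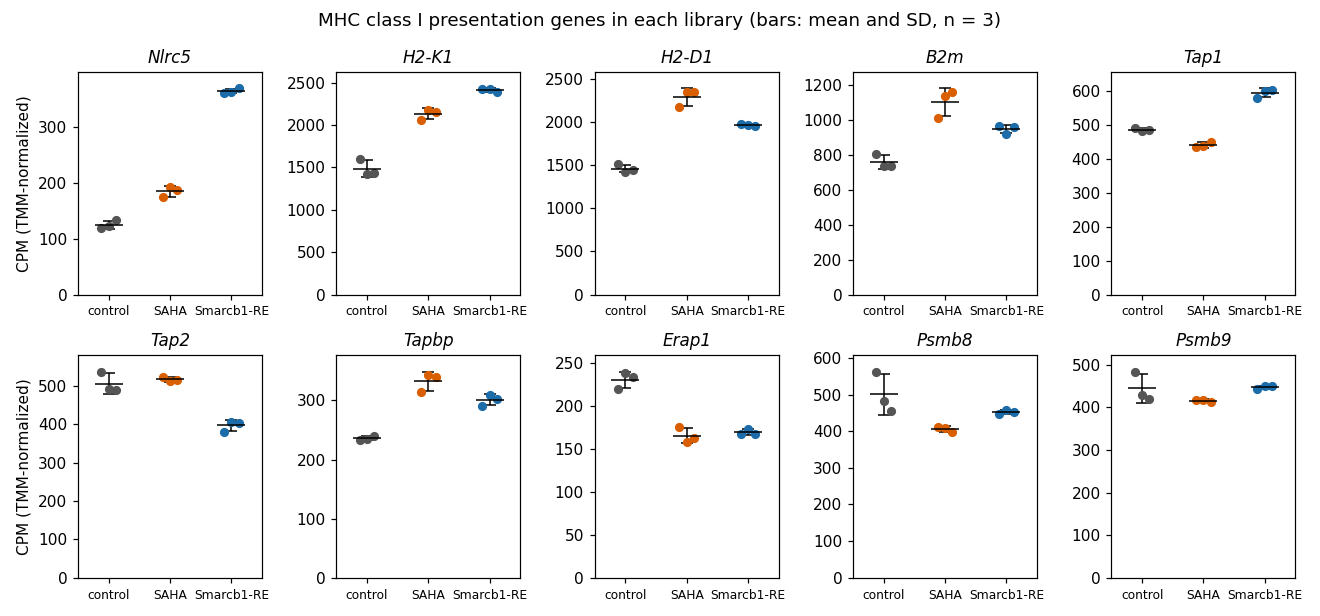
CPM (TMM-normalized, vertical axes starting at 0) of the 10 class I presentation genes in each control, SAHA and Smarcb1-RE library (points), with the mean and SD of the 3 libraries (bars). Nlrc5 rises in steps from a mean of 125 to 185 and 366 CPM, while Psmb9 stays between 412 and 484 CPM in all 9 libraries.

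The classical heavy chains H2-K1 and H2-D1, which hold the peptide, and B2m, their invariant partner, were higher in both treated groups than in control. H2-K1 (chr17:33996017-34000347, minus strand) was measured at 1600, 1422 and 1438 CPM in control, at 2059, 2183 and 2154 CPM after SAHA and at 2423, 2425 and 2386 CPM in Smarcb1-RE. H2-D1 (chr17:35262730-35267499, plus strand) was measured at 1512, 1426 and 1446 CPM in control, at 2173, 2348 and 2347 CPM after SAHA and at 1978, 1970 and 1960 CPM in Smarcb1-RE. For both genes the groups did not overlap, but the highest group was Smarcb1-RE for H2-K1 and SAHA for H2-D1. B2m (chr2:122147686-122153083, plus strand) was measured at 808, 736 and 739 CPM in control, at 1015, 1138 and 1159 CPM after SAHA and at 968, 920.0 and 960 CPM in Smarcb1-RE. Its order of groups was that of H2-D1, again without overlap.

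After SAHA, the log2 fold change was 0.52 for H2-K1 (SE 0.05, edgeR adjusted p = 9.5e-07), 0.65 for H2-D1 (SE 0.04, adjusted p = 4.5e-08) and 0.54 for B2m (SE 0.06, adjusted p = 2.7e-06). Upon Smarcb1 re-expression it was 0.70 for H2-K1 (SE 0.05, adjusted p = 2.9e-08), 0.43 for H2-D1 (SE 0.04, adjusted p = 8.1e-07) and 0.32 for B2m (SE 0.06, adjusted p = 0.000168). All 3 genes thus rose by less than Nlrc5 in Smarcb1-RE, where the factor itself was 2.92-fold higher and the heavy chains 1.62-fold and 1.35-fold. Set against SAHA, Smarcb1-RE libraries were higher in H2-K1 by 0.18 (SE 0.05, adjusted p = 0.00451) and lower in H2-D1 (log2 fold change -0.22, SE 0.04, adjusted p = 0.000397) and in B2m (log2 fold change -0.22, SE 0.06, adjusted p = 0.00315). With library totals in place of TMM factors the H2-D1 and B2m values were -0.06 each and neither passed the test (adjusted p = 0.190 and 0.316), and that scaling moved the median of all genes from 0.02 to 0.18 in this comparison and from 0.01 to 0.17 in Smarcb1-RE against control.

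The split of reads between the heavy chains is uncertain. Of the 31-base words in annotated transcripts of H2-K1, 22.8% also occurred in other genes, and of those in H2-D1 26.7%, with each other as the first partner. The deposited counts of both genes were not whole numbers in 9 of 9 libraries, as happens when reads are divided between genes. The T15 haplotype was not given in the sources used here. The sum of the pair was not whole either (0 of 9 libraries within 0.01), so reads were divided with further genes too. The counts of the pair were added after the data were seen, and the sum had a log2 fold change of 0.59 after SAHA (adjusted p = 1.6e-07), of 0.57 in Smarcb1-RE (adjusted p = 8.1e-08) and of -0.01 between Smarcb1-RE and SAHA (adjusted p = 0.785). The sum does not tell whether the opposite directions of H2-K1 and H2-D1 in the last comparison came from the division of reads.

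Tapbp encodes tapasin, which bridges the transporter and the heavy chain. Tapbp (chr17:33915899-33929292, plus strand) was measured at 233, 235 and 240 CPM in control, at 313, 343 and 340 CPM after SAHA and at 291, 309 and 303 CPM in Smarcb1-RE. Every treated library lay above every control library, and SAHA above Smarcb1-RE. It rose by 0.49 (log2 fold change, SE 0.04, edgeR adjusted p = 7.4e-07) after SAHA and by 0.35 (SE 0.04, adjusted p = 9.2e-06) in Smarcb1-RE, and the difference between both was -0.14 (SE 0.04, adjusted p = 0.0103), which became 0.02 (adjusted p = 0.754) with library totals only. Tapbp counts were not whole in 9 of 9 libraries. Of its 31-base words 4.62% also occurred in other genes, with Zbtb22 as the first partner (2.40%). The part of the division of reads in the Tapbp values was not tested.

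Tap1 and Tap2 encode the paired chains of the peptide transporter and lie on the plus strand 16.0 kb apart, with Psmb8 between them. Tap1 (chr17:34187553-34197225) was measured at 490.2, 481 and 485 CPM in control, at 435, 437 and 451 CPM after SAHA and at 579, 599.8 and 603 CPM in Smarcb1-RE. Tap2 (chr17:34203527-34216321) was measured at 537, 491 and 490.1 CPM in control, at 523, 512 and 515 CPM after SAHA and at 381, 407 and 404 CPM in Smarcb1-RE. The Smarcb1-RE libraries were thus the highest group for Tap1 and the lowest for Tap2, whereas after SAHA Tap1 lay below control and Tap2 overlapped with it. Tap1 rose in Smarcb1-RE against control (log2 fold change 0.29, SE 0.04, edgeR adjusted p = 8.3e-06) and fell after SAHA (log2 fold change -0.14, SE 0.04, adjusted p = 0.0044). Tap2 fell in Smarcb1-RE (log2 fold change -0.35, SE 0.05, adjusted p = 1.3e-05), and its change after SAHA did not pass the test (log2 fold change 0.03, 95% interval -0.07 to 0.13, adjusted p = 0.571). Against SAHA, Smarcb1-RE libraries were higher in Tap1 (log2 fold change 0.43, SE 0.04, adjusted p = 2.3e-07) and lower in Tap2 (log2 fold change -0.38, SE 0.05, adjusted p = 6.4e-06).

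The counts of Tap1 and Tap2 were not whole in any library, while their sum was whole (within 0.01) in 9 of 9 libraries. The genes shared only 0.789% of the Tap1 and 1.16% of the Tap2 words of 31 bases. The summed pair, a check chosen after the data were seen, ranged from 949 to 1027 CPM over the 9 libraries. Its log2 fold change was -0.05 after SAHA (adjusted p = 0.273), 0.00 in Smarcb1-RE (adjusted p = 0.999) and 0.05 between Smarcb1-RE and SAHA (adjusted p = 0.261). The part that the division of reads had in the opposite changes of Tap1 and Tap2 was not tested. Tap1 also overlaps Psmb9 by 212 bases on the opposite strand, and whether the counting used strand was not given in the sources used here.

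Erap1, the aminopeptidase that trims peptides in the endoplasmic reticulum, was lower in both treated groups. Erap1 (chr13:74639568-74693201, plus strand) was measured at 219, 237 and 233 CPM in control, at 175, 158 and 162 CPM after SAHA and at 167, 173 and 167 CPM in Smarcb1-RE. No treated library reached the control range, and the treated groups overlapped with each other. The log2 fold change was -0.48 after SAHA (SE 0.05, edgeR adjusted p = 2.0e-06) and -0.44 in Smarcb1-RE (SE 0.05, adjusted p = 2.1e-06). The difference between Smarcb1-RE and SAHA was 0.03 (95% interval -0.07 to 0.14, adjusted p = 0.551), and with library totals only it was 0.19 (adjusted p = 0.004).

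**Figure D2:**
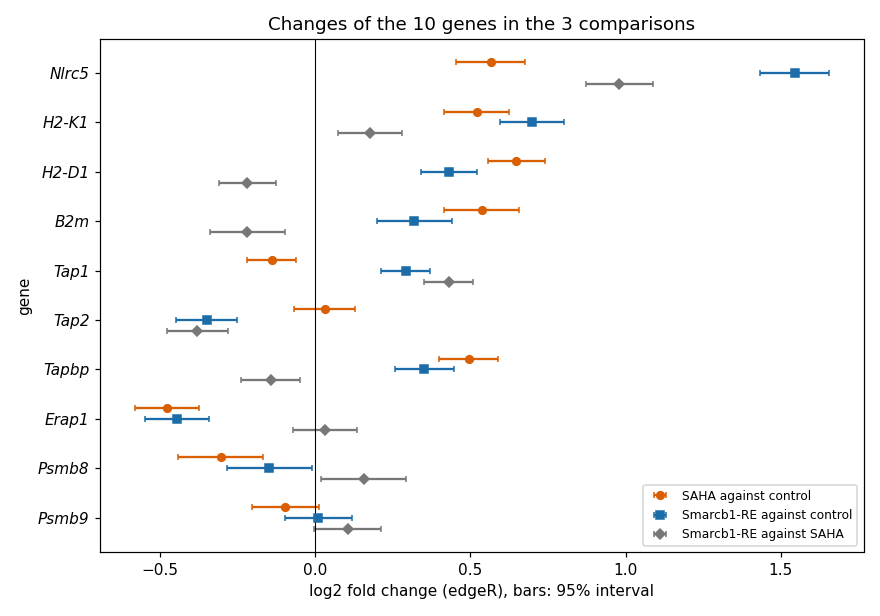
Log2 fold changes of the 10 genes from edgeR with 95% intervals (horizontal axis) for SAHA against control, Smarcb1-RE against control and Smarcb1-RE against SAHA; the first 2 share the control libraries. Nlrc5 lies furthest to the right at 1.54 in Smarcb1-RE against control, and Erap1 lies at -0.48 and -0.44 in the comparisons with control.

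Psmb8 and Psmb9 encode immunosubunits of the proteasome. Psmb8 (chr17:34197721-34201454, plus strand) was measured at 562, 484 and 455 CPM in control, at 411, 409 and 397 CPM after SAHA and at 445, 457 and 453 CPM in Smarcb1-RE. Psmb9 (chr17:34181987-34187764, minus strand) was measured at 484, 429 and 420 CPM in control, at 417, 418 and 412 CPM after SAHA and at 443, 449 and 450 CPM in Smarcb1-RE. Control replicate 1 was the highest library for both genes, and Smarcb1-RE overlapped with control for both. The SAHA libraries lay below every control library, for Psmb8 at up to 411 CPM against at least 455, and for Psmb9 only narrowly. Psmb8 fell after SAHA (log2 fold change -0.30, SE 0.06, edgeR adjusted p = 0.00091). Its difference between Smarcb1-RE and control was -0.15 (SE 0.06, adjusted p = 0.047). This call was lost without control replicate 1 (log2 fold change -0.06, adjusted p = 0.108) and also without SAHA replicate 3 or any of the 3 Smarcb1-RE libraries (log2 fold change -0.16 to -0.15, adjusted p = 0.053 to 0.0912). It was lost as well with at least 10 counts required in every library (-0.09, adjusted p = 0.182), with separate fits to each pair of groups (-0.15, adjusted p = 0.063) and with library totals only (0.01, adjusted p = 0.853).

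For Psmb8 the difference of Smarcb1-RE from SAHA was 0.16 (SE 0.06, edgeR adjusted p = 0.0392), and it no longer passed the test when control replicate 2 or any SAHA or Smarcb1-RE library was left out (log2 fold change 0.14 to 0.16, adjusted p = 0.0538 to 0.127). Psmb9 passed the test in none of the 3 comparisons. Its log2 fold change was -0.10 after SAHA (95% interval -0.20 to 0.01, adjusted p = 0.108), 0.01 in Smarcb1-RE (95% interval -0.10 to 0.12, adjusted p = 0.861) and 0.11 between Smarcb1-RE and SAHA (95% interval -0.003 to 0.21, adjusted p = 0.0716). Leaving out 1 control library gave calls for Psmb9, which was lower after SAHA without control replicate 3 (log2 fold change -0.13, adjusted p = 0.0283). Without control replicate 1 it was higher in Smarcb1-RE than in control (log2 fold change 0.07, adjusted p = 0.0373) and than in SAHA (log2 fold change 0.10, adjusted p = 0.00259).

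The constitutive counterparts of the immunosubunits fell in both treated groups, more in Smarcb1-RE. Psmb5, replaced by Psmb8 in the immunoproteasome, had a log2 fold change of -0.49 after SAHA and of -0.90 in Smarcb1-RE. For Psmb6, replaced by Psmb9, the values were -0.39 and -0.95, and for Psmb7, replaced by Psmb10, they were -0.33 and -1.39. Thus 3 of 3 were called lower in each comparison with control, beside 34.3% of all genes after SAHA and 38.6% in Smarcb1-RE. The immunosubunit share, which is the level per kb of merged exons of the immunosubunit as a percent of the sum with its counterpart, was computed for the 3 pairs.

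For Psmb8 with Psmb5 the share was 46.6% ± 0.952 (SD) in control, 49.8% ± 0.542 after SAHA and 59.5% ± 0.400 in Smarcb1-RE. For Psmb9 with Psmb6 it was 63.5% ± 0.611, 68.1% ± 0.755 and 77.2% ± 0.636, respectively. For Psmb10 with Psmb7 it was 57.2% ± 0.504, 33.6% ± 0.715 and 63.3% ± 1.13. The groups did not overlap for any pair, Smarcb1-RE was the highest group in each, and SAHA lay above control for the first 2 pairs and below it for the third. An exact two-sided permutation test gave p = 0.1 for each of the 9 comparisons (adjusted p also 0.1), which is the smallest p that 3 against 3 libraries allow, so none could reach 0.05. The rise of the Psmb8 and Psmb9 shares in Smarcb1-RE against control went with lower counterparts (Psmb5 -0.90, Psmb6 -0.95). In the main test neither immunosubunit was called higher than in control. Psmb9 was called higher with library totals only (log2 fold change 0.17, edgeR adjusted p = 0.00474) and, as given above, without control replicate 1.

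**Figure D3:**
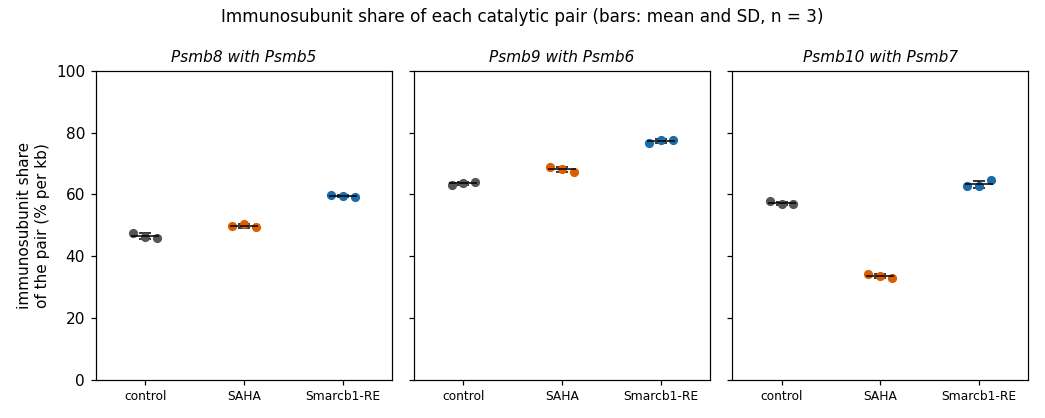
Share of the immunosubunit in each catalytic pair (vertical axis, percent of the summed level per kb, 0 to 100) in each control, SAHA and Smarcb1-RE library (points), with mean and SD. The Smarcb1-RE libraries lie highest in each pair, at means of 59.5%, 77.2% and 63.3%, and the SAHA libraries fall to 33.6% for Psmb10 with Psmb7.

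Counted together, 5 of the 10 genes were higher and 3 lower after SAHA, where 32.6% of all genes tested were called higher and 34.3% lower. In Smarcb1-RE, 6 were higher and 3 lower than in control, against 39.2% and 38.6% of all genes. In Smarcb1-RE against SAHA, 4 were higher and 4 lower, against 37.7% and 36.8% of all genes. With library totals only, the split was 7 higher and 2 lower in Smarcb1-RE against control and 6 higher and 1 lower in Smarcb1-RE against SAHA. Since most genes passed the test in each comparison, these counts alone do not set the 10 genes apart from the rest. The median log2 fold change of the 10 was 0.26 after SAHA and 0.31 in Smarcb1-RE against control, beside 0.00 and 0.01 over all genes, and their median absolute change was larger than that of all genes after SAHA (0.49 beside 0.37) and smaller in Smarcb1-RE (0.35 beside 0.53). The 10 genes did not move as a block. Nlrc5, H2-K1, H2-D1, B2m and Tapbp were higher and Erap1 and, with the limits given above, Psmb8 lower in both comparisons with control, which share the control libraries, and Tap1 was called in opposite directions.

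The other class I heavy chains rose together in Smarcb1-RE, and in part after SAHA. Of 23 listed genes, among them the Q, T and M genes of the H2 region, Cd1d2 and Hfe, 16 had enough counts to be tested. After SAHA 10 of these were higher, none lower and 6 not called, and in Smarcb1-RE 16 of 16 were higher, with medians of 0.66 and 1.30. Over all genes, 32.6% were higher after SAHA and 39.2% in Smarcb1-RE. After SAHA the largest changes were those of Cd1d2 (1.58) and H2-Q2 (1.38), both under 3 CPM in each group, and of H2-Q10 (1.16), and H2-Q4 (-0.04), H2-M3 (-0.03) and H2-T24 (0.00) were among the 6 not called. H2-Q7, the largest of these in counts, went from 534 ± 35.1 CPM (SD) in control to 1112 ± 29.2 after SAHA and 1944 ± 14.0 in Smarcb1-RE (log2 fold changes 1.06 and 1.86, SE 0.05 each). H2-Q10 changed most in Smarcb1-RE (log2 fold change 2.07, edgeR adjusted p = 5.5e-11, from 33.5 to 141 CPM), followed by H2-Q1 (2.04). H2-T23, which encodes the Qa-1 molecule that presents to NK and T cell receptors, differed little after SAHA (log2 fold change 0.02, adjusted p = 0.860) and rose in Smarcb1-RE (log2 fold change 1.06, adjusted p = 2.3e-08). Against SAHA, 12 were higher in Smarcb1-RE and 4 not called, beside 37.7% of all genes called higher and 36.8% lower. The largest differences among these heavy chains were in H2-T24 (log2 fold change 1.68), H2-Q4 (1.44) and Hfe (1.17). These genes share sequence with H2-K1 and H2-D1, so single values are uncertain. Summed over the 19 listed H2 heavy chains, H2-K1 and H2-D1 included, the log2 fold change was 0.60 after SAHA and 1.02 in Smarcb1-RE, a sum chosen after the data were seen.

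Most of the chaperones and peptidases that work beside the 10 genes fell in Smarcb1-RE. Of 14 loading and trimming partners, 11 were lower and 3 higher in Smarcb1-RE against control (median -0.73), and 5 were lower, 3 higher and 6 not called after SAHA (median -0.07), where 38.6% of all genes were lower in Smarcb1-RE and 34.3% after SAHA. The 3 that were higher in Smarcb1-RE were Tapbpl (0.32) and the peptidase genes Lnpep (0.40) and Nrd1 (0.31). Calr (calreticulin, which holds the heavy chain during loading) had a log2 fold change of -1.25 in Smarcb1-RE (edgeR adjusted p = 1.7e-11) and of 0.05 after SAHA (adjusted p = 0.244). Pdia3, which encodes the oxidoreductase ERp57 of the loading complex, went from 536 ± 23.2 CPM (SD) to 232 ± 1.37 in Smarcb1-RE (log2 fold change -1.21). Blmh, a cytosolic peptidase, had a value of -1.21 as well. Calnexin (Canx) and BiP (Hspa5) had values of -0.76 and -1.005, and several of these chaperones serve protein folding in general rather than class I alone. After SAHA the largest changes were those of Tapbpl (-0.87), which encodes the tapasin-related editor TAPBPR, of the peptidase gene Nrd1 (0.67) and of Lap3 (-0.56). In Smarcb1-RE against SAHA 11 were lower, 2 higher and 1 not called, beside 36.8% of all genes called lower and 37.7% higher. The largest differences among the partners were those of Calr (-1.30), Pdia3 (-1.22) and Tapbpl (1.20). Genes of the loading step therefore moved in both directions in Smarcb1-RE, with Tapbp and Tapbpl up and Calr, Pdia3 and Canx down.

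The partners of the immunoproteasome fell too. In Smarcb1-RE 5 of 5 were lower than in control (median -0.73), led by Pomp, the proteasome maturation factor (log2 fold change -1.54), and after SAHA 3 were lower, 1 higher and 1 not called, beside 38.6% and 34.3% of all genes called lower. Psmb10, the third immunosubunit, was measured at 111 ± 12.8 CPM (SD) in control, 33.5 ± 1.80 after SAHA and 54.8 ± 1.31 in Smarcb1-RE. Its fall after SAHA was deeper than that of Psmb8 and Psmb9 (log2 fold changes -1.73, -0.30 and -0.10), a difference between genes that was not tested. Psme1 and Psme2, the PA28 subunits, had log2 fold changes of -0.66 and -0.45 in Smarcb1-RE, and Psme3, which forms a nuclear activator and is no part of the immunoproteasome as such, had -0.73.

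Of 15 factors known from class I promoters, 4 were higher and 7 lower after SAHA, and 5 were higher and 4 lower in Smarcb1-RE (11 and 3 with library totals only). Over all genes, the shares higher and lower were 32.6% and 34.3% after SAHA and 39.2% and 38.6% in Smarcb1-RE. Rfx5, the DNA-binding subunit of the RFX complex with which Nlrc5 works, went from 29.5 ± 1.02 CPM (SD) in control to 31.3 ± 0.995 after SAHA and 79.1 ± 0.696 in Smarcb1-RE. Its log2 fold change was 1.42 in Smarcb1-RE (edgeR adjusted p = 3.3e-11) and 0.09 after SAHA (adjusted p = 0.112). Rfxank, its partner, rose by 0.60 in Smarcb1-RE (adjusted p = 4.5e-05), whereas Rfxap, the third subunit, was lower in Smarcb1-RE (log2 fold change -0.39, adjusted p = 0.000357) and after SAHA (-0.62, adjusted p = 1.1e-05). The largest change after SAHA was that of Nfyc, an NF-Y subunit (-0.79, and -0.13 in Smarcb1-RE), followed by Irf1 and by Atf1 of the CREB/ATF family (-0.71, and -0.42 in Smarcb1-RE). Crebbp, a coactivator, had values of -0.36 after SAHA and 0.48 in Smarcb1-RE, and Nfya, another NF-Y subunit, of 0.40 and -0.42. Irf1 showed the other pattern, with 0.76 after SAHA (adjusted p = 8.2e-09) and 0.09 in Smarcb1-RE (adjusted p = 0.0424). Smarcb1-RE against SAHA gave 9 higher and 2 lower, beside 37.7% and 36.8% of all genes. In that comparison Rfx5 was at 1.34, Crebbp at 0.84, Nfya at -0.82 and Irf1 at -0.67. Ciita, the class II counterpart of Nlrc5, had at most 1 count in any library and was not tested.

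The interferon-gamma pathway moved in different directions in the treated groups. Of 10 genes, 6 were higher and 2 lower after SAHA, 3 higher and 5 lower in Smarcb1-RE (5 and 4 with library totals only), and 2 higher and 7 lower in Smarcb1-RE against SAHA, beside 32.6% and 34.3%, 39.2% and 38.6%, and 37.7% and 36.8% of all genes. Ifng itself was measured at 23.4 ± 2.0 CPM (SD) in control, 175 ± 8.80 after SAHA and 25.1 ± 1.33 in Smarcb1-RE, with log2 fold changes of 2.90 (edgeR adjusted p = 5.4e-11) and 0.10 (adjusted p = 0.199). Stat2, which carries type I interferon signals, rose in both (1.65 and 0.67), as did its partner Irf9 (0.29 and 0.59). Jak2, a kinase of the receptor, had values of 0.94 and -0.15, while Socs1, an inhibitor of the pathway, fell by 0.46 after SAHA and by 1.24 in Smarcb1-RE.

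**Figure D4:**
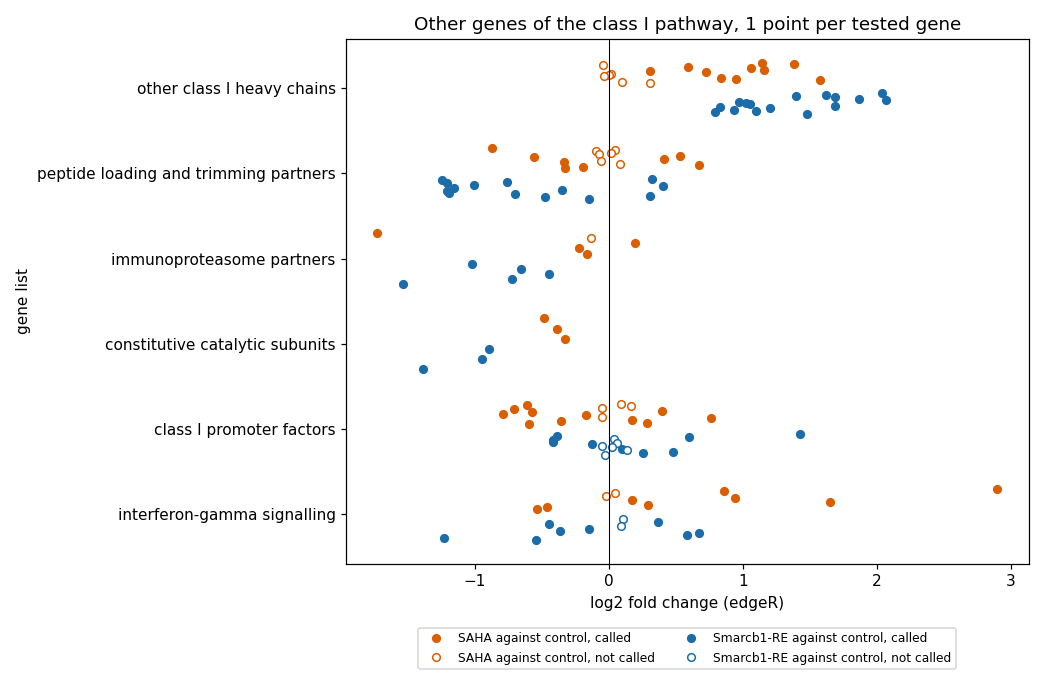
Log2 fold changes from edgeR (horizontal axis) of each tested gene in 6 lists of the class I pathway, for SAHA against control and Smarcb1-RE against control; filled points were called at an adjusted p under 0.05. The 16 other heavy chains lie right of 0 in Smarcb1-RE, and the 5 immunoproteasome partners and 3 constitutive subunits lie left of it.

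Of the 10 genes, 7 lie in the H2 region of chromosome 17, with H2-K1 and H2-D1 starting 1262 kb apart. Within 100 kb of any of the 10 genes, 42 other genes were tested, and 21 were higher and 12 lower after SAHA (median 0.19), and 20 higher and 14 lower in Smarcb1-RE (median 0.17). Over all genes the medians were 0.003 and 0.014, and 32.6% were higher and 34.3% lower after SAHA and 39.2% and 38.6% in Smarcb1-RE. The 3 largest differences after SAHA were in class II genes at low level. H2-Ab1, a class II chain, was at a mean of 0.363 CPM in control, 13.7 after SAHA and 3.34 in Smarcb1-RE (log2 fold changes 5.22 and 3.18). H2-Aa, the partner chain of H2-Ab1, was at 0.196, 2.03 and 0.175 CPM, and H2-Ob at 0.0420, 1.16 and 0.114 CPM. H2-Aa and H2-Ob had few counts outside SAHA and passed the filter only through the group where they were high. Their direction after SAHA was therefore set by the filter, and both are among the 21 called higher. In Smarcb1-RE the largest were Cpne2 (2.09 CPM in control and 0.173 in Smarcb1-RE, log2 fold change -3.55), H2-Ab1 and the pseudogene Ncr3-ps (0.266 and 1.75 CPM, log2 fold change 2.69). Ncr3-ps passed the filter only through Smarcb1-RE, so its direction was set in the same way, and it is among the 20 called higher. Some neighbours moved opposite to the gene beside them after SAHA. Others rose with it in both comparisons with control, such as Sord near B2m and H2-Ke6 near H2-K1. By GENCODE, Zbtb22 starts 0.005 kb from Tapbp on the same strand and overlaps it, so their reads may not be fully separated. Zbtb22 had log2 fold changes of -0.48 after SAHA and -0.08 in Smarcb1-RE (edgeR adjusted p = 0.28), against 0.49 and 0.35 for Tapbp. Herpud1, which lies upstream of Nlrc5, went from 82.9 CPM in control to 38.2 after SAHA and 193 in Smarcb1-RE. It thus lay below control after SAHA, where Nlrc5 lay above, and above control in Smarcb1-RE, as Nlrc5 did. These neighbours were chosen after their values were seen.

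**Figure D5:**
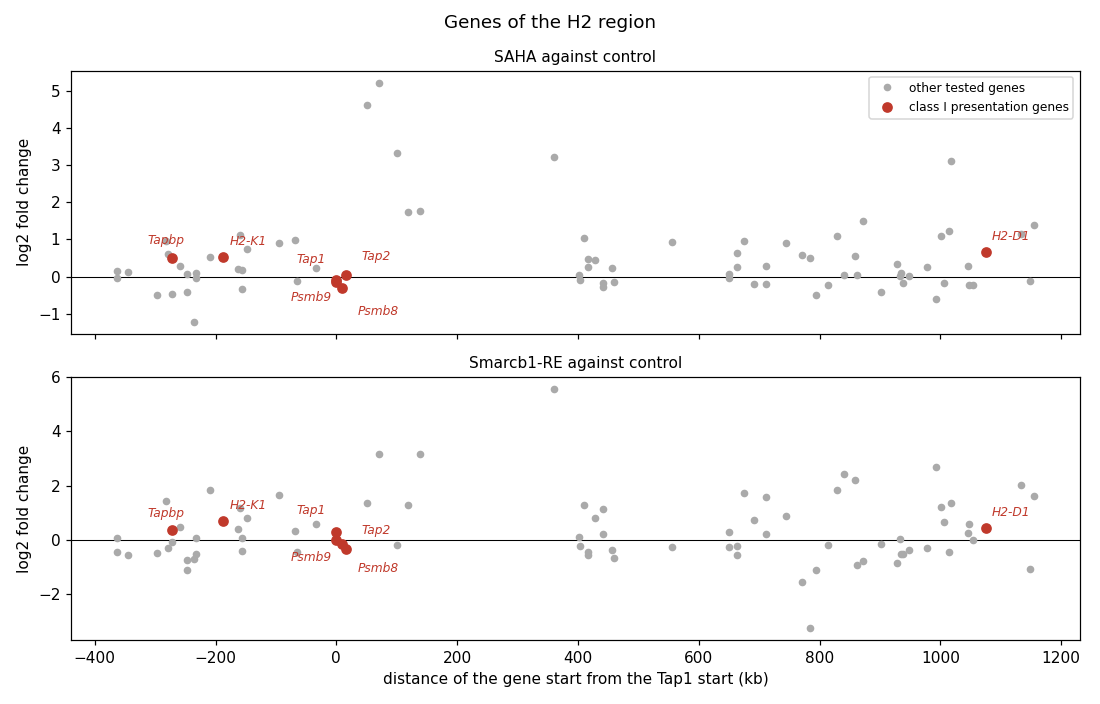
Log2 fold change from edgeR (vertical axis) of the tested genes of the H2 region by the distance of their start from that of Tap1 (kb), for SAHA against control and Smarcb1-RE against control; red points are 7 of the 10 genes and grey points the other genes. The 7 genes lie between -0.35 and 0.70, while the class II genes just right of Tap2 reach 5.22 after SAHA.

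By level per kb of merged exons, B2m was the most abundant of the 10 transcripts in each group, at 885 CPM per kb in control, 1284 after SAHA and 1104 in Smarcb1-RE. H2-D1 and H2-K1 followed in control at 567 and 506 CPM per kb, and in Smarcb1-RE H2-K1 (821) ranked above H2-D1 (764). Psmb8, Tap2 and Psmb9 came next in control at 148, 134 and 121 CPM per kb, and the ranges of neighbours in this order overlapped. Tap1 (88.6), Tapbp (65.0), Erap1 (31.6) and Nlrc5 (14.8) formed the lower end in control without overlap. After SAHA Erap1 and Nlrc5 overlapped at 22.7 and 21.8 CPM per kb, and in Smarcb1-RE Nlrc5 (43.0) lay above Erap1 (23.2) while Tap1 and Tap2 overlapped at 108 and 105. The order of the heavy chains depends on the length used, since with the longest transcript H2-K1 ranked above H2-D1 in all 3 groups and above B2m in Smarcb1-RE.

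Across the 9 libraries and 11279 genes compared by Pearson's r of log2 CPM, the genes most like Nlrc5 were Kdm7a (r = 0.999), which encodes a histone demethylase, Olfr613, Ccdc170, Raver2 and Heatr9 (each r = 0.997). Kdm7a had log2 fold changes of 1.02 after SAHA and 2.86 in Smarcb1-RE. The genes most like B2m were Oas1a (r = 0.991), Isg15 (r = 0.990), Blvrb (r = 0.990), Gm4841 (r = 0.989) and Gimap4 (r = 0.988), of which Oas1a and Isg15 are known interferon-stimulated genes. Isg15 had log2 fold changes of 1.57 after SAHA and 0.98 in Smarcb1-RE. Among the 10 genes, H2-D1 was close to Tapbp and to B2m (r = 0.985 each), and Erap1 ran opposite to H2-D1 (r = -0.959). These values are descriptions over 9 libraries that fall into 3 groups. A high r therefore means that the 3 group means lie in a like order and at like relative spacing.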

How the data were processed

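RNA was isolated from murine T15 cells, and directional libraries were read from a single end. The authors deposited 1 table of estimated counts per Ensembl gene for the 9 libraries, neither normalized nor pooled, in which 52.35% of the values above 0 were not whole. The submitters' processing notes name FastQC 0.11.8, MultiQC 1.7, Salmon 0.14.1, DESeq2 1.22.2 and GRCm38, without a role for each. The strand setting of the counting was not given in the sources used here. Estimated counts were rounded to whole numbers. Names, coordinates and exon lengths came from GENCODE M21 (GRCm38), which holds 99.46% of the 35288 identifiers, and promoters from RefSeq.

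Differences were tested by the quasi-likelihood F test of edgeR 4.0.16 in R 4.3.3 (filterByExpr at 10 counts, TMM factors, 1 model for the 9 libraries, Benjamini-Hochberg adjustment over 13697 genes, adjusted p under 0.05). The SE was derived from the log2 fold change and the F statistic. No 2 libraries agreed within sampling noise. Shares were compared by exact permutation of the libraries. The calculations were tested on simulated counts. Alternatives were DESeq2 1.42.0, median-ratio factors, library totals, other filters, separate fits, a replicate block, stricter thresholds, other lengths and leaving out each library. Sums over related genes were added after the data were seen.

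The 10 genes and the pathway lists were chosen with earlier results of these data known. From each list, the genes with the largest called changes were named, up to 3 per comparison, with a few regulators and subunits fixed beside them. Canx, Hspa5, Lnpep, Psme1, Rfxap, H2-M3 and the stromal markers were named for their role after their values were seen. Cd68, Pax5, Ms4a1 and Thy1 were also named after their values were seen. Nrdc is listed under its older name Nrd1. Some genes of these lists are not reported here by name.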

Additional observations from a re-analysis of the deposited data

How the results depend on the processing

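Of the log2 fold changes recomputed for the 10 genes in 3 comparisons under the alternatives, 448 of 480 values kept their direction and their side of the threshold, 16 lost the call, 8 gained one and 8 changed sign. The changes of sign concerned small differences. In Smarcb1-RE against control they were Psmb8 with library totals only (0.013) and Psmb9 without the filter on low counts (-0.017), and leaving out 1 library gave -0.042 to 0.069 for Psmb9. In Smarcb1-RE against SAHA they were Tapbp with library totals only (0.017) and Erap1, which ranged from -0.014 to 0.065 over the left-out libraries. The cause was not tested.

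With an absolute log2 fold change of at least 1 required, the numbers of higher and lower genes were 0 and 0 after SAHA, 1 (Nlrc5) and 0 in Smarcb1-RE, and 0 and 0 between Smarcb1-RE and SAHA, and over all genes 1671, 3237 and 2706 were called in place of 9164, 10653 and 10212. With library totals only, 1 gene in place of 4 was lower in Smarcb1-RE than in SAHA. Without division by length, the differences in immunosubunit share in percentage points were 2.24, 8.04 and 5.80 for Psmb8 with Psmb5, 3.34, 9.58 and 6.24 for Psmb9 with Psmb6, and -19.9 after SAHA and 26.1 in Smarcb1-RE against SAHA for Psmb10 with Psmb7. With the longest transcript, they were 11.5 and 8.49 for Psmb8 with Psmb5 and 15.6 and 10.7 for Psmb9 with Psmb6 in Smarcb1-RE against control and against SAHA.

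Libraries with the same replicate number did not deviate together (r from -0.07 to 0.04 over 9 pairs), and 3 of 9 libraries correlated best with one of their own number, so the numbers were not taken to pair the samples. With a replicate block, the numbers of higher and lower genes were 5 and 3, 6 and 3, and 4 and 4, and 9030, 10588 and 10137 genes were called over all genes. Single libraries left out gave 5 higher and 3 to 4 lower after SAHA, 6 to 7 and 2 to 3 in Smarcb1-RE, and 3 to 5 and 4 between both. Where a group was left with 2 libraries, the spread came from all groups. Depth limited the low class II genes, not the 10 genes.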
